A study of Mus musculus with 2 samples.

Results

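The genes for the proteins of the cytoplasmic ribosome were followed in single Sox1-GFP+ cells of mouse tail and mouse brain. Members were the 82 gene symbols of 19608 in the files that begin with Rpl or Rps and end in the number of a ribosomal protein, with 48 genes of the large subunit, 31 of the small subunit and the 3 stalk genes Rplp0, Rplp1 and Rplp2. Of these, 79 had molecules in kept cells of both libraries, Rpl39l in the tail only, and Rpl3l and Rpl10l in the brain only. These 3 and Rps10 lay under the minimum of 50 molecules over both libraries that was set for ratios of single genes, which left 78.

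The ribosome translates messenger RNA with a small subunit that reads the message and a large subunit that joins amino acids, and each ribosome carries about equal numbers of most of its proteins. The messages of these proteins start with a run of pyrimidines, the terminal oligopyrimidine (TOP) motif, through which growth signals control their translation together with that of elongation factors. Ribosomal protein messages take up a large part of the messenger RNA of growing and dividing cells, and resting stem cells of the brain are known for low protein synthesis.

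The cells came from mice in which GFP reports Sox1, a gene of the early neuroepithelium, and both groups carried the reporter (genotype Sox1-GFP+) and no further treatment than dissociation and sorting. The study's methods give postnatal tail and adult brain, so tissue, age and library cannot be told apart. There was 1 library per group, captured with the BD Rhapsody system, in which molecular identifiers let PCR copies count as 1 molecule. No test was therefore possible, all intervals are 95% intervals that cover counting error only, and each value describes these 2 libraries.

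After filtering, 1964 of 2469 tail barcodes and 7988 of 12111 brain barcodes remained, with medians of 1117.5 and 591 non-mitochondrial molecules. Of the kept barcodes, 18 occurred in both libraries. Among tail cells, 25.6% had at least 2 molecules of a neuronal marker list, 13.6% of an ependymal list, 12.4% of a fibroblast list and 4.33% of the keratinocyte genes Krt5 and Krt14, so the sort held non-neural cells. In the brain 74.4% had at least 2 molecules of an astroglial list and 20.6% of the neuronal list, and Krt5 and Krt14 were at 0.

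The windows around the transcription start of 8 members show members with a long pyrimidine run and members with a short one, both among core proteins and among their variants. Each holds the 15 bases before the start and the first 15 transcribed bases (RefSeq, GRCm38.p6, 5′ to 3′ on the gene's strand). Capitals mark the longest run of C and T within 10 bases on either side of the start. The marked runs of Rpl22, Rps27l, Rpl39l and Rpl7l1 lie before the start, outside the transcribed bases.
Rpl7a, chr2:26910792-26910821, plus strand: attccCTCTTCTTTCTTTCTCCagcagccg
Rpl13a, chr7:45128731-45128760, minus strand: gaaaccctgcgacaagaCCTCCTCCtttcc
Rpl12, chr2:32961697-32961726, plus strand: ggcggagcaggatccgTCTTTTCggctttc
Rpl22, chr4:152325711-152325740, plus strand: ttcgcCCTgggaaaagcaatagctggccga
Rpl22l1, chr3:28805493-28805522, plus strand: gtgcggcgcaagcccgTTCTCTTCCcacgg
Rps27l, chr9:66946071-66946100, plus strand: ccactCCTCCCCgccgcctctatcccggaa
Rpl39l, chr16:10170213-10170242, plus strand: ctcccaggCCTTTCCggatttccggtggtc
Rpl7l1, chr17:46782642-46782671, minus strand: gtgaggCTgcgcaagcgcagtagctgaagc

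Of the 82 members, 62 had a promoter in the RefSeq table. A pyrimidine run of at least 6 bases was found in 30 of them (48.4%), against 20.1% of all 27025 genes in the table. The run was sought within 10 bases on either side of the start, so it need not begin the message. The longest run was 17 bases in Rpl7a, 9 in Rpl22l1 and 2 in Rpl7l1. The letters CTTCCG, searched on both strands of the 300-base promoter, were present in 66.1% of the members' promoters and 17.2% of all. The letters ATGGCG, searched in the same way, were in 30.6% and 9.24%. The members with a run of at least 6 bases and those with a shorter one had median tail over brain ratios of 3.25 (28 genes) and 3.37 (30 genes).

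The comparison of the libraries asked how much of the messenger RNA of Sox1-GFP+ cells codes for ribosomal proteins in each tissue. In the tail the members took 7.47% of all non-mitochondrial molecules (183298 molecules, interval 7.43 to 7.50). In the brain they took 2.22% (121686 molecules, 2.21 to 2.23). The share was 3.37-fold higher in the tail (3.34 to 3.39). The spread over cells was wide within both libraries: the middle cell of the tail had a share of 6.45% (quartiles 4.75 and 8.53) and that of the brain 0.959% (0.534 and 3.31). A typical tail cell held 69 ribosomal protein molecules and a typical brain cell 6, and 275 brain cells and 3 tail cells held none.

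The brain cells fell into a large group with few of these messages and a smaller group with a share in the lower range of tail cells. The 1846 brain cells with neither Slc1a3 nor 2 molecules of the astroglial list had a median share of 5.26% and 31 ribosomal protein molecules. A share under 2% was found in 70.6% of brain cells and 1.17% of tail cells, and a share above 5% in 15.4% and 72.0%. At the upper end, 306 tail cells and 20 brain cells had a share of at least 10%. Of the 306 tail cells, 124 had at least 2 molecules of the fibroblast list (Col1a2, Col3a1, Dcn, Lum). At least 2 molecules of Krt5 and Krt14 were found in 84 of the 306, where the library held 85 such cells in all. These counts are not of separate cells: 243 tail cells had the fibroblast list and 85 the keratins, but 284 had either. Krt5 and Krt14 are keratins of the basal epidermis, and the cells with them had the highest pooled share of the marker lists, 17.8% (17.6 to 18.0). These 2-molecule sets and the share of 10% were chosen after the values had been seen. Without the cells of both lists the share was 6.20% in the tail and 2.22% in the brain, a 2.79-fold difference (2.76 to 2.81).

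**Figure D1:**
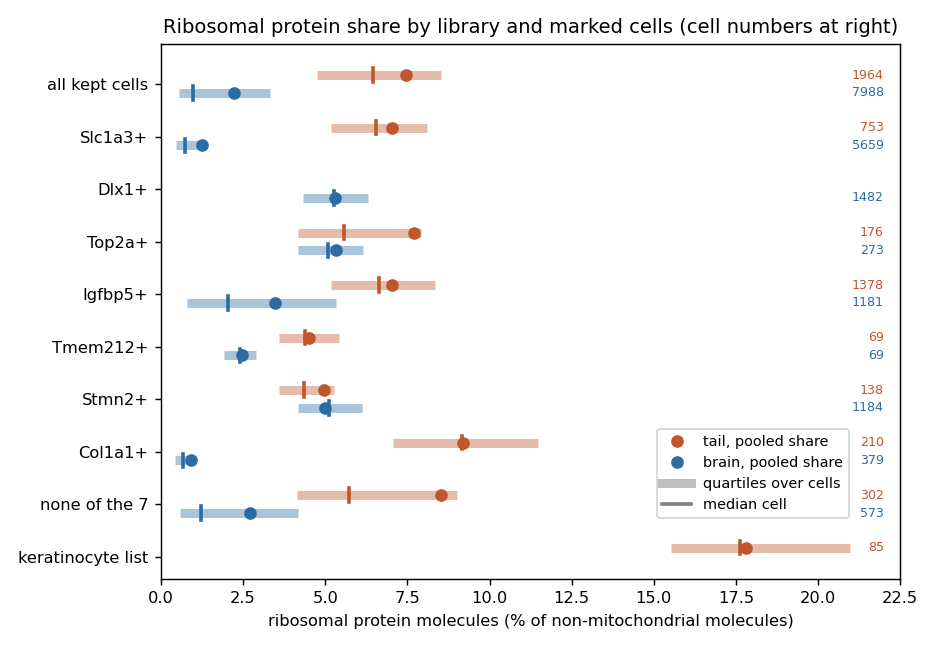
Ribosomal protein molecules as a percent of non-mitochondrial molecules (x axis) in all kept cells, in cells with a molecule of each marker, in cells with none of the 7 markers and in tail cells with at least 2 molecules of Krt5 and Krt14 (y axis). Points are pooled shares, bars the quartiles over cells, ticks the median cell and figures at the right the number of cells; brain Slc1a3+ cells sit at 1.24% while the tail and brain Stmn2+ cells sit together near 5%.

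The subunits kept their proportions while the total differed. Large subunit genes made up 46.7% of the members' molecules in tail cells and 47.9% in brain cells, and small subunit genes 48.4% in both. The stalk genes, whose acidic proteins form the flexible arm that recruits elongation factors to the large subunit, made up 4.93% in the tail and 3.75% in the brain.

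The cells were then set apart by a molecule of 7 marker genes, to see where in each library the ribosomal protein messages lay. A cell could carry several markers, and a marker name stands here for the gene and not for a cell type. Slc1a3, the glial glutamate transporter, was found in 5659 brain cells, 97.7% of which had a molecule of the astroglial list (Aqp4, Aldoc, Slc1a2, Gja1, Agt). In these cells the share was 1.24% (1.23 to 1.25), and in the other 2329 brain cells it was 4.74%, a ratio of 0.261 (0.258 to 0.264). The middle Slc1a3+ brain cell held 4 ribosomal protein molecules. In the tail, 753 cells had Slc1a3 and a pooled share of 7.03% (6.98 to 7.09), against 7.72% in the others, while the middle cells were at 6.54% and 6.41%. The tail Slc1a3+ cells were of a different kind: 43.7% had a molecule of the astroglial list, 43.2% of the ependymal list and 92.7% also had Igfbp5. In all kept tail cells these were 31.2%, 29.1% and 70.2%. The neuronal list was found in 43.6% of tail Slc1a3+ cells and 47.0% of all kept tail cells. A cycling list (Mki67, Cdk1, Birc5, Ccnb1, Hmgb2) was found in 34.8% and 32.1%. Within Slc1a3+ cells the tail share was 5.69-fold that of the brain (5.62 to 5.76).

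The neuronal and dividing cells of the brain stood at the other end. Dlx1, a homeobox gene of interneuron precursors, marked 1482 brain cells with a share of 5.29% (5.25 to 5.33) against 1.41% in the rest. Stmn2, a microtubule regulator of young neurons, marked 1184 brain cells with 5.01% (4.96 to 5.05) against 1.71%. Top2a, the topoisomerase of dividing cells, marked 273 brain cells with 5.34% (5.27 to 5.41) against 1.98%. These brain sets overlap, since 74.1% of Stmn2+ cells also had Dlx1 and 72.2% of Top2a+ cells had Dlx1, so their shares are not separate observations. Cells with Dlx1 but no Stmn2 had 5.58%, and cells with both had 5.06%.

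Stmn2+ cells were the one marked set with nearly the same share in both tissues. The 138 tail Stmn2+ cells had 4.96% (4.87 to 5.05), a tail over brain ratio of 0.991 (0.970 to 1.01). The middle cells were at 4.34% in the tail and 5.10% in the brain. In both libraries over 9 in 10 of these cells had a molecule of the neuronal list (Tubb3, Dcx, Stmn3, Map1b), 91.3% and 93.9%, but Dlx1, found in 74.1% of those of the brain, was in none of those of the tail. Other interneuron neuroblast genes (Dlx2, Dlx5, Gad1, Gad2, Sp9) had a molecule in 55.8% of the tail Stmn2+ cells. The same list was found in 9.01% of all kept tail cells and in 80.7% of brain Stmn2+ cells. Only 1 tail cell had Dlx1, and no share is compared for it. The ratio within Stmn2+ cells was 0.850 where cells carried no other of the 7 markers.

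Top2a+ cells of the tail had a share of 7.69% (7.60 to 7.78), 1.44-fold that of the brain set (1.41 to 1.47). Their middle cell was at 5.57%, below the 6.56% of the other tail cells. Of the 176 cells, 13.1% had a molecule of Krt5 or Krt14 and 35.8% of the fibroblast list. Without the 2-molecule Krt5 and Krt14 cells the tail Top2a+ share was 6.10%.

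Igfbp5, a secreted binding protein of insulin-like growth factors, marked 1378 tail cells (70.2% of the library) with a pooled share of 7.03% against 8.33% in the others, and 1181 brain cells with 3.48% against 1.93%. In the tail the direction turned with the middle cell, which was at 6.65% in Igfbp5+ cells and 5.79% in the others. The brain set was mixed. Its 729 cells with Slc1a3 had 2.38% and its 452 cells without Slc1a3 had 5.31%. The same split of the tail set gave 6.57% and 7.47%.

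Tmem212, a gene of multiciliated cells, marked 69 cells in each library, of which 85.5% in the tail and 91.3% in the brain had a molecule of the ependymal list (Foxj1, Dynlrb2, Ccdc153, Rsph1). Their share was 4.50% in the tail (4.38 to 4.63), the lowest of the tail sets with 20 cells or more, and 2.46% in the brain (2.35 to 2.57), where it was above that of Slc1a3+ cells and below that of Dlx1+ cells. The tail over brain ratio was 1.83 (1.74 to 1.93).

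Col1a1, a fibrillar collagen gene, marked cells of unlike kinds. Of the 210 tail cells, 86.2% had another fibroblast marker, and their share of 9.20% (9.11 to 9.29) was the highest of the 7 marked sets. Of the 379 brain cells, 3.17% had another fibroblast marker while 91.6% had Slc1a3 and 98.7% an astroglial marker, so the brain set is not one of fibroblasts by these genes, and its share was 0.917%. That share was 1.46% in the 36 brain cells with at least 2 Col1a1 molecules and 0.587% in the 28 with Col1a1 alone of the 7 markers. Only 12 brain cells had Col1a1 with another fibroblast marker. The tail over brain ratio of 10.04 within Col1a1+ cells (9.63 to 10.5) thus set different cells against each other.

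In order of their pooled shares, the tail sets ran from Tmem212 and Stmn2 through Igfbp5 and Slc1a3, whose intervals overlap, to Top2a and Col1a1. The place of Top2a rested on the Krt5 and Krt14 cells: without them it was at 6.10%, below Slc1a3+ cells without them at 6.45%, and its middle cell was below those of Igfbp5+ and Slc1a3+ cells. The brain sets ran from Col1a1 and Slc1a3 through Tmem212 and Igfbp5 to Stmn2, Dlx1 and Top2a, and the intervals of the last pair overlap.

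Cell quality moved with the share over all brain cells and within brain Slc1a3+ cells, but not in every brain set. Brain Slc1a3+ cells had a median of 16.0% mitochondrial molecules and 6799 CPM of the nuclear RNA Malat1 (CPM are molecules per 1000000 non-mitochondrial molecules), and brain Stmn2+ cells 8.42% and 2142 CPM. Over all brain cells the share was 3.77% where mitochondrial molecules made up under 10%, 1.77% at 10 to 20%, 0.930% at 20 to 30% and 1.17% at 30 to 40%. Within brain Slc1a3+ cells it was 2.08%, 1.12%, 0.855% and 0.999% over the same ranges. Brain Stmn2+ cells had 4.97% under 10%, 5.21% at 10 to 20% and, in 20 cells, 3.05% at 20 to 30%. Brain Top2a+ cells had 5.22% under 10% and 5.64% at 10 to 20%. Over all tail cells the share was 6.82%, 7.69%, 8.52% and 8.04%. Slc1a3+ cells were 827 of 2154 brain cells under 10% and 3337 of 4088 at 10 to 20%, so the mix of cells changed as well. With the limit on mitochondrial molecules lowered to 10% the tail over brain ratio was 1.81 (1.79 to 1.83), and Slc1a3+ brain cells had 0.409 of the share of the others. The part of mitochondrial content and of Malat1 in the difference between the libraries was not tested. The share had no common relation to depth. In 4 equal groups of cells from the shallowest to the deepest the brain share was 1.97%, 1.95%, 1.89% and 2.60% and the tail share 7.12%, 7.15%, 6.82% and 8.08%. Within brain Slc1a3+ cells it was 0.886%, 0.832%, 0.906% and 1.72%, and within tail Top2a+ cells 5.78%, 6.58%, 6.43% and 9.40%. Within brain Stmn2+ cells it fell, with 5.65%, 5.22%, 5.11% and 4.64%. Within tail Igfbp5+ cells it was 7.28%, 7.01%, 6.81% and 7.09%. The middle cell of the whole tail library was at 6.78% in the shallowest group and 6.29% in the deepest. The part of depth was not tested.

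**Figure D2:**
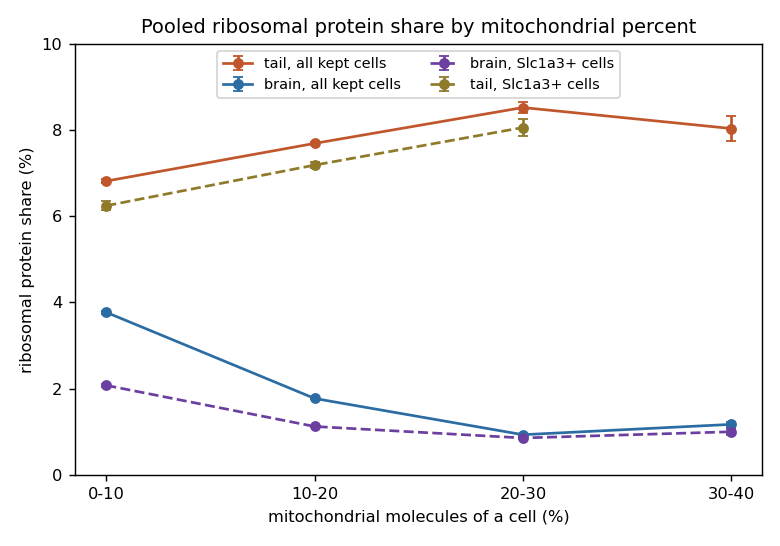
Pooled ribosomal protein share (y axis, percent of non-mitochondrial molecules, 95% counting intervals) in cells grouped by their mitochondrial percent (x axis), for all kept cells and Slc1a3+ cells of each library. The brain share goes from 3.77% to 0.930% over the first 3 ranges while the tail share goes from 6.82% to 8.52%; tail Slc1a3+ cells with 30 to 40% were under 20 in number and are not drawn.

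The genes were next compared one by one between tail and brain. All 78 had a higher CPM in the tail, with ratios from 1.74 to 5.04 and a median of 3.28. For 76 of them (97.4%) the whole interval lay above 2-fold, and the same was true of 12.8% of the 11347 genes with at least 50 molecules, whose median ratio was 1.19. None lay below 2-fold lower, where 9.27% of all genes did. The exceptions among the members were Rpl7l1 at 1.74 (1.40 to 2.16) and Rpl13a at 2.30 (1.95 to 2.71). The ratios depend on the scale. With TMM or median-ratio scaling all tail over brain ratios were lower by 0.36 or 0.34 on the log2 scale, the group's ratio was 2.63 or 2.66, and 64 or 66 members lay above 2-fold. The same scalings turned the split of calls over all genes from 58.1% higher in the tail to 44.4% or 45.1%.

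**Figure D3:**
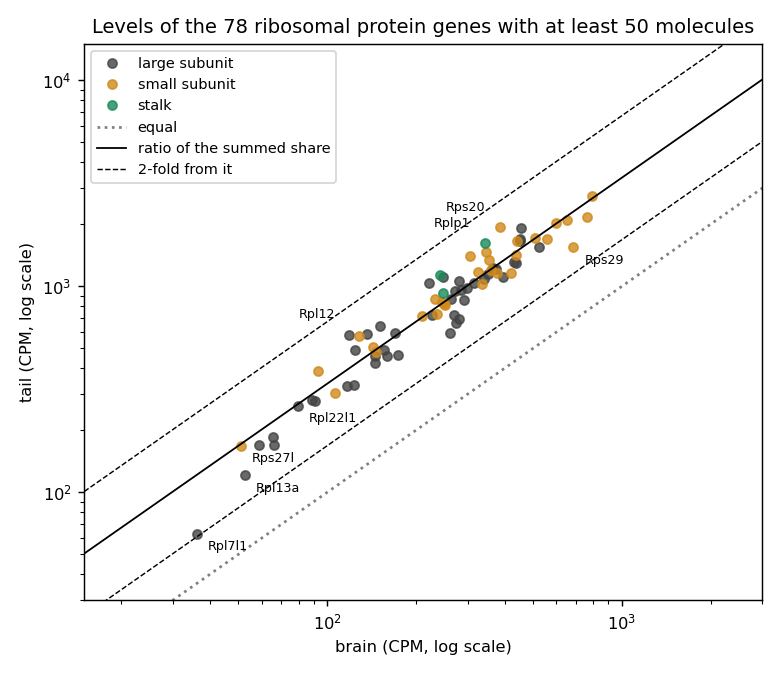
Level of the 78 ribosomal protein genes in the brain (x axis) and in the tail (y axis), in CPM on log scales, coloured by subunit. The solid line is the ratio of the summed share, 3.37, and the dashed lines lie 2-fold from it; every gene lies above the dotted line of equal levels and Rpl7l1 lies at the lower dashed line.

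The members differed between the tissues nearly as 1 block. A gene was said to depart from the group where its share of all ribosomal protein molecules differed between tail and brain with the whole interval beyond 2-fold. No member departed, while 4.01% of all genes lay that far above the group's ratio and 56.6% that far below it. Of the 78, 77 were within 1.5-fold of the group. The log2 ratios of the members had an SD over genes of 0.28, and those of 4645 other genes with at least as many molecules as the rarest member tested (352) had an SD of 1.69.

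Within the block, the genes farthest above the group were Rps20, Rplp1, Rpl12, Rplp2 and Rpl17. Rps20, a protein of the small subunit head, had 1943 CPM in tail cells and 385 CPM in brain cells, and its share of the group was 1.5-fold higher in the tail (1.42 to 1.58). Rplp1 and Rplp2, the acidic stalk proteins, had 1625 and 343 CPM and 1131 and 242 CPM, with group shares 1.41-fold (1.33 to 1.49) and 1.39-fold (1.30 to 1.49) higher. Rplp0, which anchors them, had 927 and 247 CPM and stood nearer the group, at 1.12 (1.04 to 1.19). Rpl12, a neighbour of the stalk base, had 582 CPM and 119 CPM and a group share 1.45-fold higher (1.32 to 1.6). Rpl17, which lines the exit tunnel for the growing chain, had 1035 and 221 CPM and a value of 1.39 (1.30 to 1.49). The median over all 45 large subunit genes tested was 0.941 and over the 30 small subunit genes 0.996.

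Among the genes farthest below the group were Rpl7l1, Rps29, Rpl7a and Rpl37. Rpl7l1, related in sequence to Rpl7, had 62.7 CPM in tail cells and 36.1 CPM in brain cells, so that its share of the group was 0.516 of that in the brain (0.416 to 0.641). Rpl7 itself had 1113 and 395 CPM and a value of 0.837 (0.791 to 0.886). Rps29, a small zinc-binding protein of the small subunit, had 1547 and 685 CPM and a value of 0.671 (0.641 to 0.702). The large subunit genes Rpl7a and Rpl37 had 594 and 260 CPM and 696 and 280 CPM, with values of 0.678 (0.630 to 0.730) and 0.739 (0.690 to 0.792). Each of these genes was still higher in the tail by CPM.

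Among the variants with a close relative in the genome, Rpl22l1 and Rps27l stood with the block between tail and brain, while Rpl7l1 was the member farthest below it. Rpl22l1, the relative of the RNA-binding protein Rpl22, had 262 CPM in tail cells and 79.5 CPM in brain cells, and stood at 0.979 of the group (0.866 to 1.11), and Rpl22 at 462 and 174 CPM stood at 0.790 (0.724 to 0.862). Rps27l had 169 and 50.9 CPM and stood at 0.985 (0.844 to 1.15), beside Rps27 with 716 and 209 CPM at 1.02 (0.944 to 1.1). Rpl3 had 424 and 146 CPM (0.865), Rpl10 169 and 66.0 CPM (0.761), and Rps4x 1415 and 437 CPM (0.961). Their relatives were almost silent: Rpl3l, known from heart and skeletal muscle, had 0 molecules in tail cells and 4 in brain cells, Rpl10l, known from male germ cells, had 0 and 2, and Rps4l was listed in neither file. Reads of close copies and of pseudogenes may be divided by the pipeline, so levels of single genes are less certain than the sum.

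Rpl39l was the clearest case of a member confined to some cells. It is the relative of Rpl39, a short protein of the exit tunnel, and is known from male germ cells. All 28 of its molecules were in 18 tail cells, each of which also had Col1a1, with at most 4 molecules in a cell. The 210 Col1a1+ tail cells had 67.6 CPM and the other 1754 tail cells 0 molecules, which allows up to 1.47 CPM (3 molecules over the group). No molecule was found in 7988 brain cells, which allows up to 0.547 CPM, beside 11.4 CPM in the tail. Rpl39 was found throughout, with 1915 CPM in tail cells, 454 CPM in brain cells and a group value of 1.25 (1.19 to 1.32). With 28 molecules Rpl39l was under the minimum, and it was named by rule as a variant.

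Marked cells were then compared with the other cells of their own library, gene by gene. Where the group's share was low the genes were low together. In brain Slc1a3+ cells 75 of 78 members lay below the other cells by more than 2-fold on CPM and 0 lay above, where 15.8% of 9811 genes lay below and 12.7% above. In brain Dlx1+ cells 75 lay above and 0 below (15.6% and 17.2% of all genes). In brain Stmn2+ cells 66 lay above and 0 below (11.3% and 14.9%), and in brain Top2a+ cells 64 and 0 (8.69% and 11.1%). The members of these sets thus went in 1 direction where genes at large went in both. Since the Dlx1+, Stmn2+ and Top2a+ sets overlap and mostly lack Slc1a3, these counts are not separate observations. In brain Igfbp5+ cells 1 lay above, Rpl13a at 115 CPM against 38.5 CPM, and 0 below (1.07% and 0.591%). In brain Tmem212+ cells 0 lay above and 0 below (4.6% and 2.6%), and in brain Col1a1+ cells 0 above and 15 below (0.0408% and 2.16%).

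In the tail almost no member lay beyond 2-fold in a marked set. Of 8236 genes, 1.64% lay above and 4.18% below in Slc1a3+ cells, 2.34% and 2.53% in Top2a+ cells, and 4.16% and 3.8% in Igfbp5+ cells, with 0 members in each. In Stmn2+ cells 4.04% lay above and 4.5% below and in Col1a1+ cells 4.23% and 8.56%, again with 0 members. In Tmem212+ cells 0 members lay above and 1 below (3.84% and 1.88%).

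By share of the group, 1 member departed from the others in 1 set, Rps27l in tail Tmem212+ cells. Of all genes, 8.98% lay that far above the group's total in this set and 0.741% that far below. Rps27l, the small relative of Rps27 in the small subunit, is known as a gene switched on by DNA damage. It had 39 molecules in 69 Tmem212+ cells, or 353 CPM, and 375 molecules in the other 1895 tail cells, or 160 CPM. Its share of ribosomal protein molecules was 3.73-fold that in the other cells (2.61 to 5.19). Of the summed molecules of Rps27l and Rps27, Rps27l gave 45.9% in Tmem212+ cells (35.0 to 57.0) and 19.1% in the whole tail library (17.4 to 20.8). In the brain Tmem212+ set the value was 2.14 from 9 molecules (0.970 to 4.13).

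No member departed in the other 12 sets, while genes at large did to unlike degrees. In the tail, 2.29% of genes lay beyond 2-fold above the group's total and 3.62% below it in Slc1a3+ cells, 2.26% and 2.79% in Top2a+ cells, 5.69% and 2.97% in Igfbp5+ cells, 9.12% and 2.02% in Stmn2+ cells, and 3.29% and 13.5% in Col1a1+ cells. In the brain, where the group itself differed most, the percentages were 56.7% above and 1.69% below in Slc1a3+ cells and 16.4% and 0.326% in Col1a1+ cells. They were 1.06% and 56.1% in Dlx1+ cells, 1.87% and 35.6% in Top2a+ cells and 0.938% and 43.5% in Stmn2+ cells. In brain Igfbp5+ cells they were 0.0713% and 9.65%, and in brain Tmem212+ cells 4.12% and 3.06%.

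Cells chosen by the ependymal list, some of which were Tmem212+ cells too, also had Rps27l above the group. The 268 tail cells with at least 2 molecules of that list had 289 CPM of Rps27l and a group share 2.92-fold that of the others (2.33 to 3.65). The 218 of them without Tmem212 had 253 CPM and a lower value, 2.21 (1.69 to 2.86). The 63 brain cells of the list had 138 CPM and 2.41 (1.14 to 4.50). Neither of these last intervals lay wholly beyond 2-fold, so Rps27l did not depart there by the rule. The minimum of 2 molecules was chosen after the values had been seen.

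Rps27l also stood apart, short of the 2-fold rule, in other sets. In tail Top2a+ cells it had 257 CPM against 154 CPM, a group share 1.62-fold higher (1.27 to 2.04). Of these cells 8.52% had Tmem212, against 3.51% of the library, and 47.7% a molecule of the ependymal list, against 29.1%. This set is thus not separate from the Tmem212+ set. In brain Slc1a3+ cells Rps27l had 41.8 CPM against 74.1 CPM, lower but less so than the group. Its share of the group was 2.16-fold higher there (1.69 to 2.77). In brain Dlx1+ and Stmn2+ cells its shares were 0.502 (0.387 to 0.647) and 0.461 (0.337 to 0.622) of those in the other cells. Rpl7l1 was likewise above the group in the first of these brain sets and below it in the others. Its value was 2.03 in Slc1a3+ cells (1.52 to 2.72), 0.480 in Dlx1+ cells (0.350 to 0.651) and 0.537 in Stmn2+ cells (0.375 to 0.755). Of the brain Dlx1+ and Stmn2+ cells 10.7% and 9.46% had Slc1a3. The values of these brain sets therefore largely show the same contrast from both sides and are not separate observations. Rpl22l1 gave 39.3% of the molecules of the Rpl22l1 and Rpl22 pair in brain Slc1a3+ cells (35.4 to 43.4) and 21.0% in Stmn2+ cells (17.2 to 25.1).

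Rps26, whose protein lies at the exit of the message channel of the small subunit, went the other way. Its share of the group was the lowest of the members, by the bound nearer to 1, in tail Slc1a3+ (0.828), Igfbp5+ (0.799) and Tmem212+ cells (0.617, 0.493 to 0.762) and in brain Tmem212+ (0.472, 0.308 to 0.693) and Col1a1+ cells (0.585, 0.421 to 0.793). It was the highest in tail Col1a1+ (1.22) and brain Dlx1+ cells (1.39, 1.30 to 1.49). In CPM it had 788 in tail Tmem212+ cells against 2096 in the whole tail library, and 291 in brain Slc1a3+ cells against 1806 in Dlx1+ cells.

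**Figure D4:**
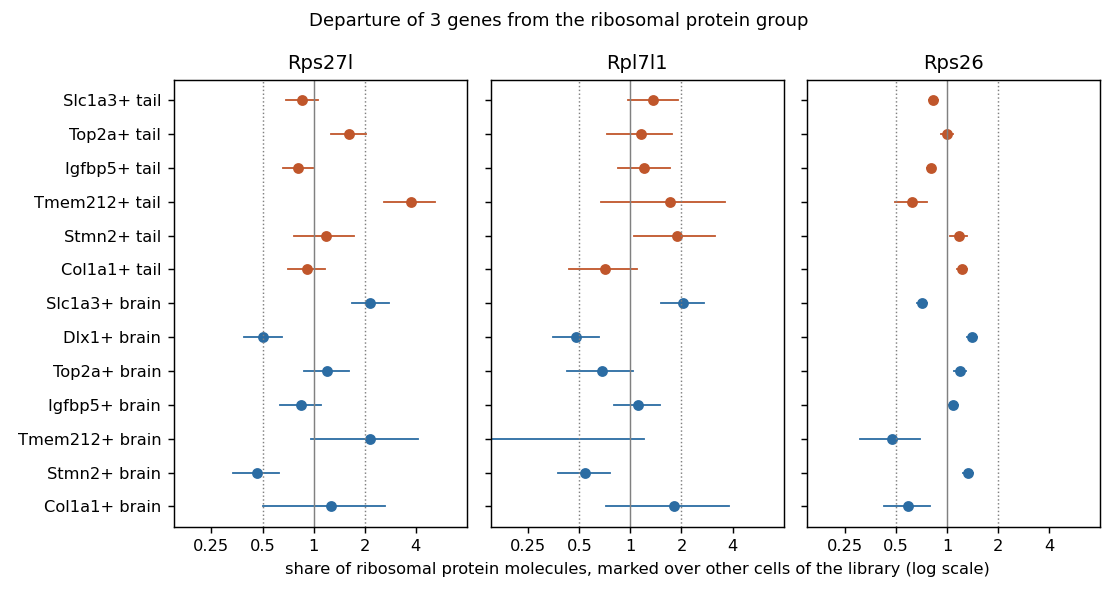
Share of ribosomal protein molecules in marked cells over that in the other cells of the same library (x axis, log scale, 95% counting intervals) for Rps27l, Rpl7l1 and Rps26 in each marked set of at least 50 cells (y axis). The Rps27l interval in tail Tmem212+ cells, 2.61 to 5.19, is the only one wholly beyond a dotted 2-fold line, and Rpl7l1 had 0 molecules in brain Tmem212+ cells, so only its upper limit is drawn.

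Other genes that were farthest out in a set stayed within the 2-fold rule. Above the group these included Rps14 in tail Slc1a3+ cells (1.16), Rpl41 in tail Igfbp5+ cells (1.31), Rpl24 in tail Stmn2+ cells (1.44), Rpl36a in brain Top2a+ cells (1.42), Rpl13a in brain Igfbp5+ cells (1.65), Rpl7 in brain Tmem212+ cells (1.86) and Rpl9 in brain Col1a1+ cells (1.55). Below the group they included Rps18 in tail Top2a+ cells (0.767), Rpl36a in tail Stmn2+ cells (0.634), Rps9 in tail Col1a1+ cells (0.802), Rpl7 in brain Top2a+ cells (0.790) and Rpl23a in brain Igfbp5+ cells (0.876). All are core proteins of the subunit that their symbol names, and the direction of Rpl7 and Rpl36a differed from set to set.

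Other genes of translation were compared by lists. Ribosomal proteins whose symbols the rule does not match went with the group: 3 of 5 had enough molecules, all 3 were higher in the tail beyond 2-fold, and their summed level was 3.43-fold higher (3.27 to 3.61). These were Rpsa at 3.29, the fusion gene Fau, which codes for a small subunit protein, at 3.31, and Rack1, a scaffold on the small subunit, at 3.78. Elongation factors and other TOP genes were higher by 2.87-fold in sum (2.83 to 2.91), with 8 of 16 beyond 2-fold and 0 lower. Abundant genes weigh most in a sum, and the median gene ratio of this list was 2.20. Vim, an intermediate filament gene, had a ratio of 9.59 and Eef1b2, an exchange factor for elongation, 3.44, while Eef1d (1.53) and Hnrnpa1 (1.65) were least apart. The ribosome biogenesis list was higher by 2.12-fold in sum (2.05 to 2.18) and by 1.62-fold at its median gene. It had 4 of 23 genes beyond 2-fold and 0 lower, near the 12.8% of all genes beyond 2-fold higher. It was led by the nucleolar chaperone Npm1 at 3.04 and the snoRNP protein Nhp2 at 3.01, and Wdr12 (0.993) and Nob1 (1.07), both assembly factors, had ratios near 1. The 77 mitochondrial ribosomal protein genes were higher by 1.38-fold in sum (1.34 to 1.41), with 1 beyond 2-fold, Mrpl54 at 3.86, a smaller part than of all genes, and 0 lower. Mrps15 (0.815) and Mrps5 (0.829) had the lowest ratios and Mrps28 at 2.28 was next to Mrpl54.

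The lists had the same order within the brain, with the first 2 closest to each other in both comparisons. In Slc1a3+ cells the summed level was 0.249 of that in the other brain cells for the ribosomal proteins outside the rule, 0.261 for the members, 0.286 for elongation factors and other TOP genes, 0.414 for ribosome biogenesis and 0.764 for mitochondrial ribosomal proteins. Beyond 2-fold lower were 3 of 3, 75 of 78, 12 of 16, 4 of 23 and 1 of 76 genes, where 15.8% of all genes were, so that the counts for biogenesis and mitochondrial ribosomal proteins do not stand above those of genes at large, and 0 of any list were beyond 2-fold higher. These ratios share the cells of the shares given above.

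**Figure D5:**
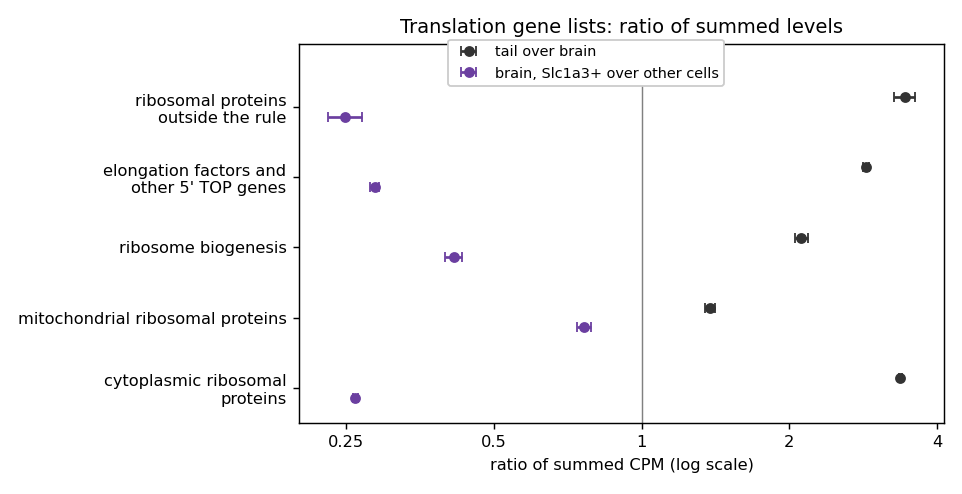
Ratio of summed CPM (x axis, log scale, 95% counting intervals) for lists of translation genes and for the cytoplasmic ribosomal proteins (y axis), tail over brain and brain Slc1a3+ cells over the other brain cells. Both ratios lie farthest from 1 for ribosomal proteins and nearest to 1 for mitochondrial ribosomal proteins, at 1.38 and 0.764.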

How the data were processed

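RNA was counted in single sorted Sox1-GFP+ cells of tail and brain, 1 library each. The deposited values are whole-number counts of molecules, which came, per the file headers, from BD's WTA pipeline for Rhapsody (version 1.10.1) on GRCm38 with GENCODE vM19. The submitters' processing notes also name UMI-tools 1.0.1, STAR 2.7.1a and featureCounts 1.6.4. Error-corrected counts were used. Kept barcodes had over 200 genes, under 4000 genes and less than 40% of molecules from mitochondrial genes, which were left out of all totals. Molecules were summed over cells. Shares have Clopper-Pearson intervals and ratios conditional exact binomial intervals (scipy 1.17.1). With 1 library per group there was no test. Genes named were the variants and their counterparts, the stalk genes, the 5 farthest from the group in each direction between tissues, and those that departed or were farthest out in a marked set of at least 50 cells. Some genes that this rule names are not reported here. Members and lists were chosen with earlier results of these data known. The ratio code was checked on simulated counts. TMM totals came from edgeR 4.0.16 and size factors from DESeq2 1.42.0, as scales only. Positions follow GRCm38, and promoter sequences RefSeq on GRCm38.p6.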

Additional observations from a re-analysis of the deposited data

Results flagged for a closer look

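In 4 marked sets the ribosomal protein share relative to the other cells of the library lay on opposite sides of 1 in tail and brain, and the difference was not tested. Igfbp5+ cells had 0.843 of the share of the others in the tail and 1.80 in the brain, but by the median cell the tail set was higher too, at 6.65% against 5.79%. Tmem212+ cells had 0.592 and 1.11, and Stmn2+ cells 0.644 and 2.92. Col1a1+ cells had 1.29 and 0.401. The level of the other cells differed between the libraries at the same time: the cells without Stmn2 had a share of 7.71% in the tail and 1.71% in the brain, and the Stmn2+ cells themselves 4.96% and 5.01%. The brain Col1a1+ cells lacked other fibroblast markers in all but 3.17%.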

How the results depend on the processing

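Of 379 values recomputed under 21 alternatives, 244 stayed within their counting interval (counts within 1.5 times), 134 moved more and 1 turned its direction. A turn was recorded for ratios only. Other marked sets that changed sides against the rest of their library were not counted as turns. The turned value was the share of tail Slc1a3+ cells over other tail cells, 0.912. It became 1.69 with the 32 cells that carried Slc1a3 alone of the 7 markers. Of these, 12 had at least 2 molecules of Krt5 and Krt14 and a share of 18.5%, and the other 20 had 6.69%. The limit of 10% on mitochondrial molecules, the fibroblast partner for Col1a1 and the cell filters for marked departures were chosen after seeing the data.

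The tail share, 7.47%, was 7.38% with a mitochondrial limit of 20%, 6.82% with 10%, 7.33% without a cell filter, 7.27% thinned to 400 molecules, 7.22% as a mean over cells, 8.06% without the 20 most abundant other genes and 7.58% with the ribosomal protein genes outside the symbol rule other than Rack1. The brain share, 2.22%, was 2.50% with the limit of 20%, 3.77% with 10%, 2.20% without Scrublet doublets (5 tail and 76 brain cells), 2.11% thinned, 2.05% as a mean, 2.51% without the 20 genes, 2.25% with the added genes and 2.23% without Malat1. The tail over brain ratio, 3.37, was 2.95 with the limit of 20%, 1.81 with 10%, 3.29 without a filter, 3.39 without doublets, 3.44 thinned, 3.53 as means over cells and 3.21 without the 20 genes.

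The brain Slc1a3+ ratio, 0.261, was 0.269 with the limit of 20%, 0.409 with 10%, 0.289 without a filter, 0.253 without doublets, 0.231 thinned, 0.230 as means, 0.284 without the 20 genes, 0.245 with 2 marker molecules and 0.230 with 1 marker alone. The tail Slc1a3+ ratio was 0.940 without a filter, 0.957 thinned, 0.946 as means, 0.932 without the 20 genes, 0.883 with 2 marker molecules, 0.923 without the 7 markers in the total and 0.890 with the limit of 10%. The Stmn2+ tail over brain ratio, 0.991, was 0.920 thinned, 0.951 as means, 0.873 with 2 marker molecules, 0.850 with 1 marker alone and 0.918 with the limit of 10%. Of the 6 tail sets, 2 had a higher share than the other cells, where 1 did so thinned and 1 as means, and 3 with 1 marker alone and 3 with the limit of 10%.

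Measured against TMM or median-ratio totals instead of the group, 64 or 66 members lay above 2-fold in the tail. Without a minimum of molecules 1 departed, Rpl39l, and at 1.5-fold 1 lay below, Rpl7l1. Among marked sets, the 1 departure became 0 when thinned, 0 with 2 marker molecules, 0 with 1 marker alone and 7 at 1.5-fold. Rps27l in tail Tmem212+ cells stood at 3.29 thinned (0.669 to 9.88) and 3.49 with 2 marker molecules (2.11 to 5.47), in a set then under 50 cells. At 1.5-fold the 7 were Rps27l in 4 sets, Rpl7l1 in 2 and Rpl22l1 in 1. Apart from Rps27l in tail Tmem212+ cells, they were in brain Slc1a3+, Dlx1+ or Stmn2+ cells, which are not separate observations. Genes higher in the tail over all genes were 1456, and 733 with at least 200 molecules. No paired analysis was possible because each group has 1 library and no test was run. Thinning left out 19 tail and 718 brain cells, and few molecules per brain cell limit single genes most.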

Other observations

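Brain cells grouped in other ways also differed in their ribosomal protein share, and some of these groups hold cells of the 7 markers. The 43 brain cells with at least 2 molecules of a macrophage or microglia list (Ctss, C1qa, C1qb) had a pooled share of 3.12%. For the 1846 brain cells with neither Slc1a3 nor 2 molecules of the astroglial list the share was 5.29%, and the quartiles of these cells were 4.22% and 6.31%. Brain Slc1a3+ cells that also had Top2a, 77 in number, had 5.40%, and the 4468 with Slc1a3 alone of the 7 markers had 0.867%. Barcodes left out for 40% or more mitochondrial molecules had shares of 6.96% in the tail (356 barcodes) and 2.86% in the brain (3428 barcodes).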
